A study of Drosophila melanogaster with 12 samples.

Results

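Superoxide dismutases, catalase and the thioredoxin system remove reactive oxygen species and keep protein thiols reduced. The 9 genes described here are Sod1, Sod2, Sod3, Cat, Irc, Trx-2, TrxT, dhd and Trxr1. They were taken as a fixed list by symbol, and all 9 of them were among the 15631 genes counted in whole Drosophila melanogaster at 10 or 30 days of age. The flies were of the w1118 strain, a white-eyed laboratory line, in all groups. They were mated, and the sexes were kept in separate vials from 3 days of age on a diet of sucrose and yeast. The groups were 30-day males, 30-day females, 10-day males and 10-day females, with 3 poly(A) libraries each and 10 pooled flies per library. The 3 samples of a group came from independent experiments, per the study's methods. Because whole flies were homogenized, every value is a sum over all organs, germline included.

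Superoxide dismutases turn superoxide into hydrogen peroxide, which catalase breaks down to water and oxygen. Thioredoxins are small proteins that reduce disulfide bonds in other proteins, and thioredoxin reductase recharges them. Flies lack a glutathione reductase, so that their thioredoxin reductase also keeps glutathione reduced. Drosophila has a general thioredoxin, Trx-2, and a pair of germline thioredoxins, TrxT of the testis and dhd (deadhead) of the ovary. The protein of dhd is stored in the egg, where it is needed to unpack the sperm chromatin after fertilisation.

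The libraries held 23097763 to 62924598 counts, the smallest being 30-day male 2. Each male library held counts of the Y-linked genes kl-3 and kl-5, and no female library did. Males and females differed in the genes of most organs. The summed level of 5 photoreceptor genes ranged over 3757 to 4568 CPM in 30-day males and 269 to 610 CPM in 30-day females, and over 4742 to 5454 CPM in 10-day males and 585 to 1064 CPM in 10-day females. CPM are counts scaled to the size of the library after TMM correction, a method that sets libraries to a common level through genes of moderate change. The median of all tested genes was 1.32 log2 units higher in males than in females at 30 days and 1.06 at 10 days, so that a sex difference near 0 is a low one among the genes of these libraries. Values of single genes below are CPM, and genes are compared with one another only in CPM per kilobase of exon. Gene positions are those of the annotation BDGP6.54, since the annotation used for the counts is not given in the sources used here.

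Of the 9 genes, 4 were higher and 4 lower in 30-day males than in 30-day females at an adjusted p below 0.05 in edgeR's quasi-likelihood test. Of all 13013 genes tested at that age, 48.4% were higher and 30.4% lower in males. At 10 days, 3 of the 9 genes were higher in males and 4 lower, where 46.8% of 13334 tested genes were higher and 31.6% lower. Sex-biased members were thus about as frequent as sex-biased genes in general. The median log2 difference of the 9 genes was -0.12 at 30 days and -0.08 at 10 days. TrxT, Cat and Irc were higher in males at both ages, and dhd, Sod3, Trx-2 and Trxr1 were lower. In bulk libraries, fewer cells of a type and less RNA per cell cannot be told apart.

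**Figure D1:**
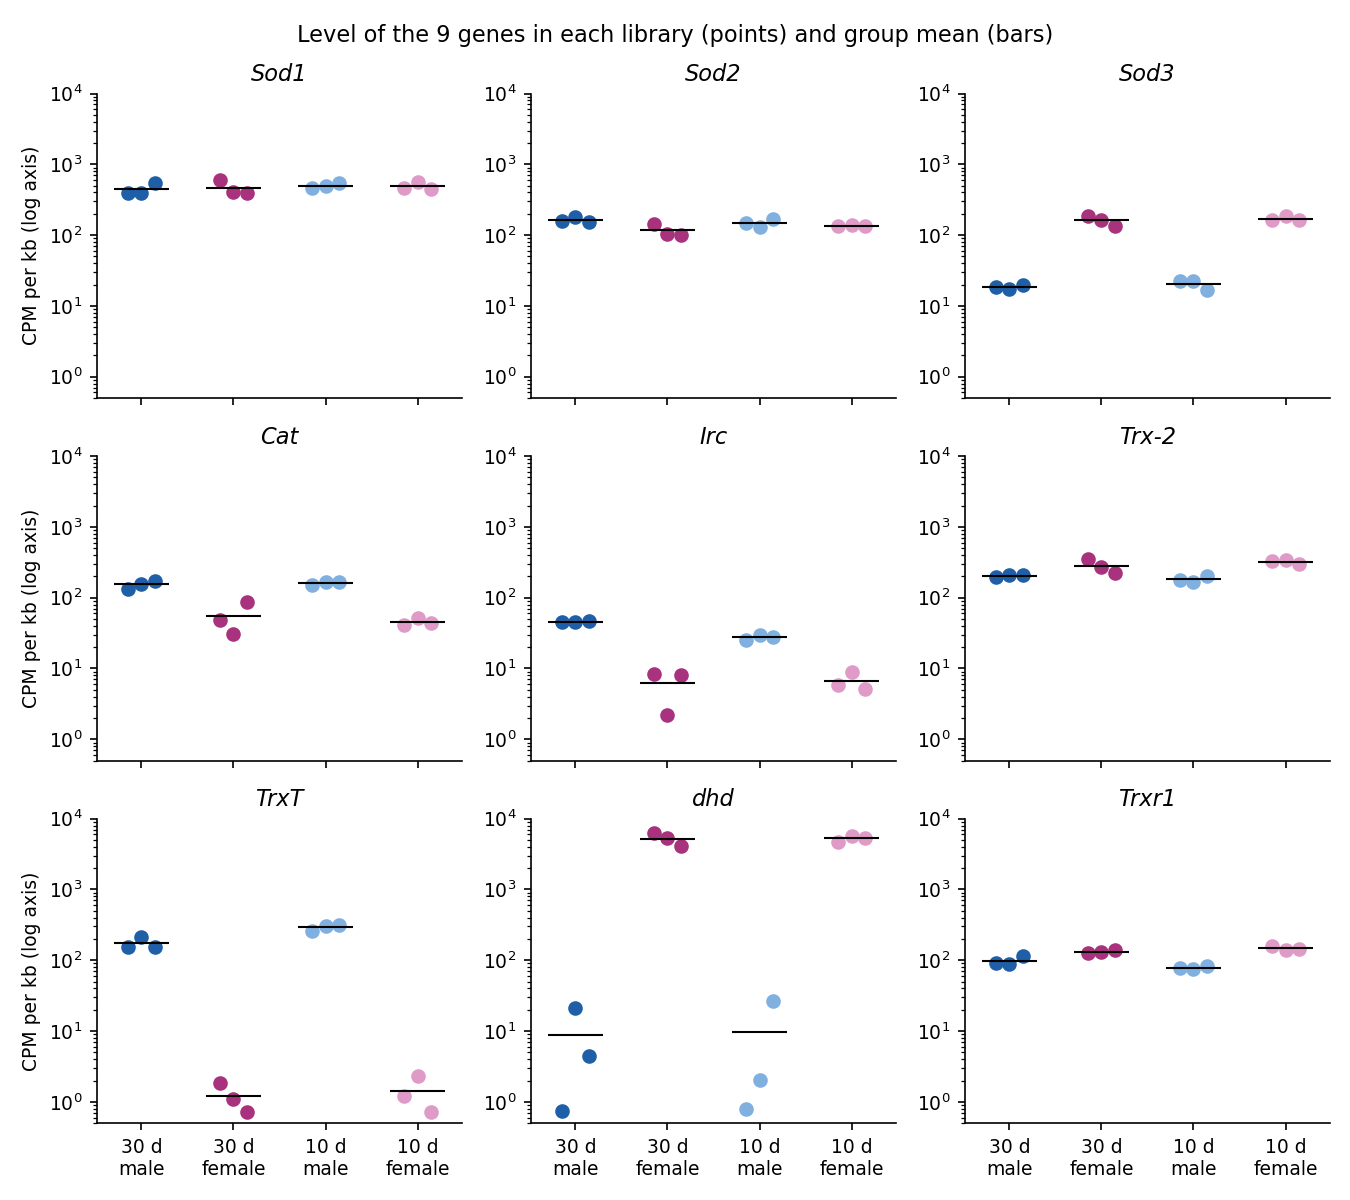
Level of each of the 9 genes in each library, in CPM per kilobase of exon on a log axis, by sex and age. Points are libraries and horizontal bars are group means. dhd and TrxT separate the sexes most widely, Sod1 overlaps between them, and 3 of the 6 male libraries lie above 4 CPM per kilobase for dhd.

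The direction of several of these differences depended on the scaling of the libraries. Factors taken from genes of photoreceptors, neurons and muscle, called body-tissue factors below, moved the median of all genes by -2.73 log2 units at 30 days and by -2.23 at 10 days. With them, 1 of the 9 genes passed as higher and 7 as lower in males at each age. The tissues behind these factors did not move alike. Under them the median log2 difference at 30 days was 1.24 for photoreceptor, 1.34 for neuron and -1.28 for muscle genes. At 10 days it was 0.63, 0.78 and -0.51. The RLE and upper quartile factors moved the median by 0.17 to 0.30, and total counts by -0.28 and -0.16. With body-tissue factors the calls over all genes split into 3141 up and 6490 down in males at 30 days, in place of 6299 and 3950, and into 3342 and 6616 at 10 days, in place of 6238 and 4216. A change of factors shifts the log2 differences of all genes by nearly the same amount. The position of a gene relative to the median of all genes is thus nearly fixed in advance, and its stability is no test. Relative to that median, TrxT was 5.78 log2 units higher in males at 30 days with TMM factors and 5.79 with the other factors. Cat was 0.13 and 0.14 higher on that relative scale at 30 days, and 0.66 and 0.68 higher at 10 days.

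**Figure D2:**
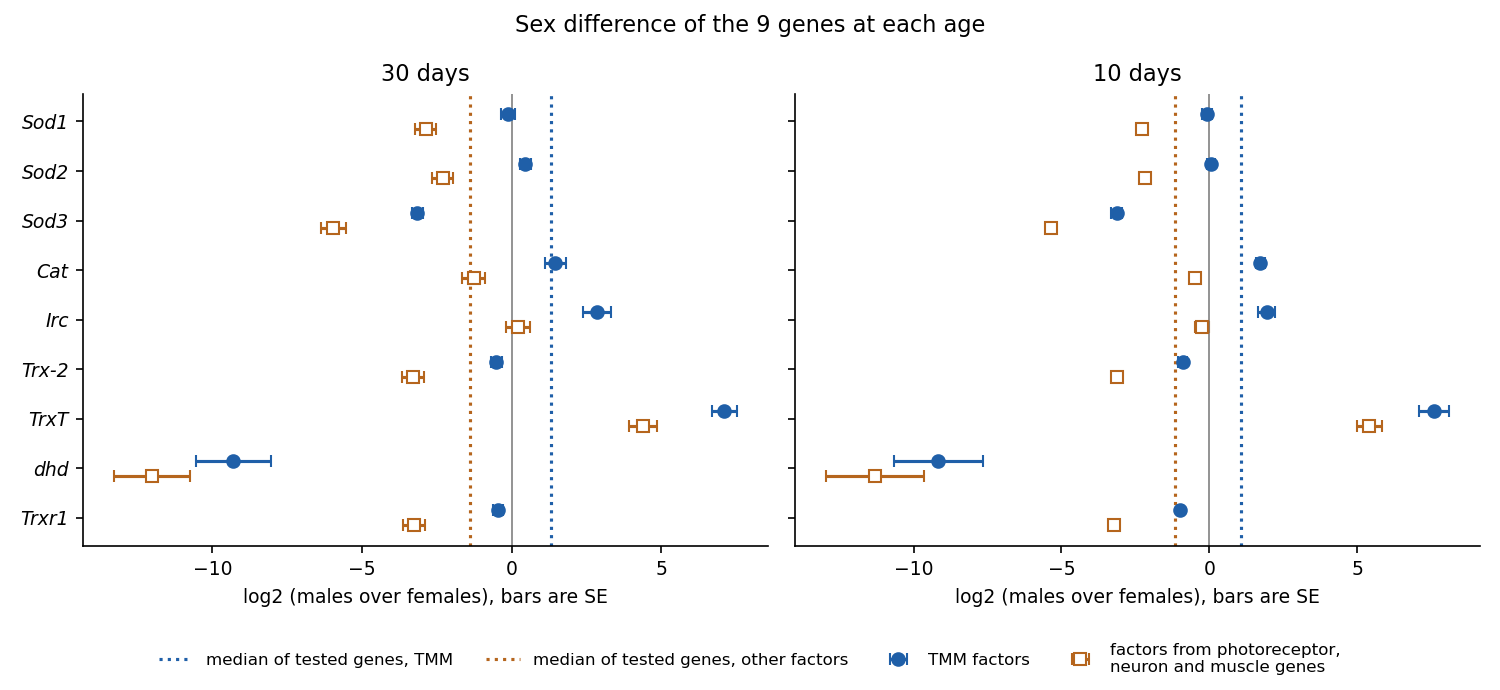
Log2 difference of males over females for each of the 9 genes at 30 days (left) and 10 days (right), with TMM factors (filled) and with body-tissue factors (open), which come from genes of photoreceptors, neurons and muscle. Bars are standard errors and dotted lines are the medians of all tested genes. Sod2 and Cat lie on opposite sides of 0 under the different factors at both ages, as does Irc at 10 days, while Sod3, TrxT and dhd keep their side.

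The ovary thioredoxin dhd was the gene with the largest difference among the 9. It lies on the X chromosome at 5312171 to 5313125, on the plus strand, as a single exon. Its counts were 26, 402 and 153 in 30-day males, against 268450, 310592 and 170685 in 30-day females. In 10-day males they were 28, 69 and 1067, against 301772, 316956 and 275459 in 10-day females. The groups of males and females lay far apart at both ages. dhd alone took 0.454% to 0.673% of the counts of a female library. It ranked 2 or 3 among all genes by count in each female library, and 1 in CPM per kilobase in all 6 of them. edgeR gave a log2 difference of -9.30 with a standard error of 1.25 at 30 days (edgeR adjusted p = 0.000295) and -9.16 with a standard error of 1.50 at 10 days (edgeR adjusted p = 0.0011).

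The male values of dhd differed widely between libraries of a group. The highest male library was 10-day male 3, with 25.4 CPM, against 0.749 and 1.92 CPM in the other 10-day males. In 30-day males the highest was replicate 2, with 20.1 CPM, against 0.704 and 4.24 CPM. Of a list of 10 ovary germline genes, 6 were at their highest among the 30-day males in male 2 and 3 at their lowest, and 6 were at their highest among the 10-day males in male 3 and 4 at their lowest. BicD, grk and vas were lowest in 30-day male 2, and exu, grk, orb and vas in 10-day male 3. These genes had counts in every male library. vas, a helicase of germ cells in both sexes, had 3.21 CPM in 30-day male 2 and 3.28 CPM in 10-day male 3. swa had 2.05 CPM in 30-day male 2, against 0 in the other 30-day males. It had 3.28 CPM in 10-day male 3, against 0.321 and 0.139 CPM. The same 2 libraries were the only males with counts of osk and Pxt. osk, Pxt, swa and vas were picked from the list after their values were seen. osk, a determinant of the embryo's posterior pole, had 6 counts in 30-day male 2 and 44 in 10-day male 3, and Pxt, a gene of eggshell formation, had 37 and 132. In females osk ranged over 4009 to 11870 counts. The part of RNA from female flies or tissue in the male counts of dhd was not tested. Without 10-day male 3 the log2 difference of dhd at 10 days was -11.89, and without 30-day male 2 it was -11.02 at 30 days, so that each of these libraries moves the fold by over 1.5 times.

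The level of dhd was set beside the summed level of 10 ovary germline genes (osk, nanos, bcd, grk, vas, swa, exu, BicD, orb and Pxt). This sum ranged over 584 to 761 CPM in 30-day males and 2369 to 3098 CPM in 30-day females, and over 1094 to 1224 CPM in 10-day males and 2713 to 2896 CPM in 10-day females. Several genes of the list, such as exu and orb, are expressed in both sexes. In CPM, dhd amounted to 1.16% ± 1.32 of the list's sum in 30-day males and 187% ± 59.0 in 30-day females (SD, n = 3 each). At 10 days it amounted to 0.848% ± 1.28 in males and 181% ± 23.9 in females (SD, n = 3 each). In females this single thioredoxin gene thus averaged more counts than the 10 ovary genes together.

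TrxT, the testis thioredoxin, is the neighbour of dhd. It lies at 5310581 to 5311888 of the X chromosome on the minus strand, so that the genes are transcribed away from each other with 282 bp between their ends. TrxT had 168, 238 and 169 CPM in 30-day males, against 2.04, 1.23 and 0.797 CPM in 30-day females. It had 290, 334 and 352 CPM in 10-day males, against 1.34, 2.54 and 0.789 CPM in 10-day females. Every male library was far above every female library. On the log2 scale males differed by 7.10 with a standard error of 0.41 at 30 days (edgeR adjusted p = 1.02e-05) and 7.59 with a standard error of 0.50 at 10 days (edgeR adjusted p = 1.64e-05). Without 10-day female 2, the highest female library of that age, the 10-day difference was 8.21, a fold over 1.5 times as large. The female libraries held between 35 and 147 counts of TrxT each, few but not 0.

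**Figure D3:**
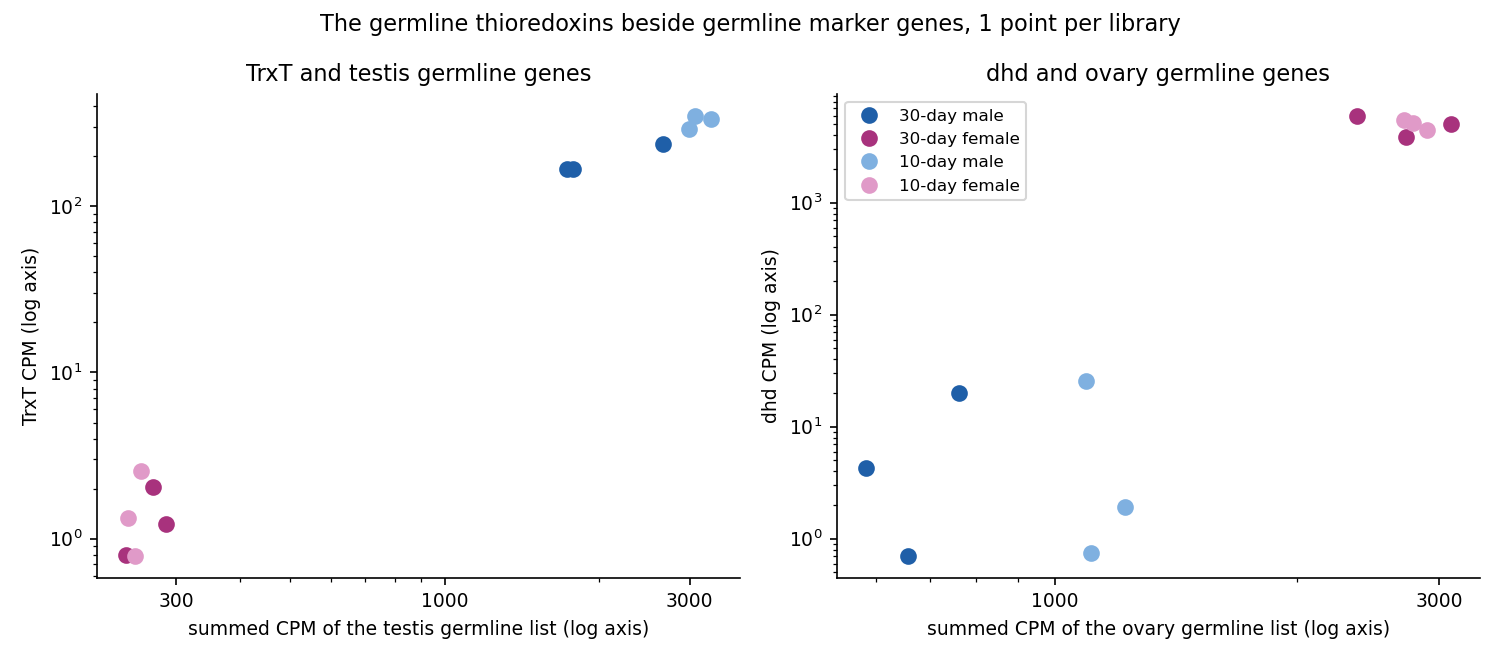
TrxT against the summed level of 13 testis germline genes (left) and dhd against that of 10 ovary germline genes (right), in CPM on log axes, 1 point per library. The 30-day males lie below the 10-day males on both axes of the left plot, and 10-day male 3 and 30-day male 2 are the highest male points for dhd.

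The genes on either side of this pair differed between the sexes in both directions. Next to TrxT lie snf and Cdk7, a splicing factor and a cell cycle kinase, both lower in males. snf averaged 31.2 ± 2.65 CPM in 30-day males and 98.8 ± 23.7 CPM in 30-day females, and Cdk7 11.1 ± 2.24 and 83.7 ± 15.6 CPM in the same groups (SD, n = 3 each). Next to dhd lie CG4198 and CG15930, both higher in males. CG4198 averaged 69.2 ± 17.9 CPM in 30-day males and 1.80 ± 1.37 CPM in 30-day females (SD, n = 3 each). In this stretch of 6 neighbouring genes, snf, Cdk7 and dhd were thus lower and TrxT, CG4198 and CG15930 higher in males at both ages, and under body-tissue factors CG15930 kept its sign but not its call.

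Genes whose levels followed those of the germline thioredoxins were sought among the 12153 genes with a mean of at least 1 CPM. Over the 12 libraries, TrxT was most like CG3982 (Pearson r = 0.999 of log2 CPM), followed by CG12992 and CG32181 (r = 0.998 each). dhd was most like the cytochrome P450 gene Cyp6a19 (r = 0.995), pgc, a silencer of transcription in germ cells (r = 0.993), and CG5568 (r = 0.992). Since the libraries fall into males and females, any gene of 1 sex alone gives a high r, and these values describe likeness without a test.

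Trx-2, the general thioredoxin on chromosome arm 2L (9613166 to 9616404), was lower in males by less than the germline thioredoxins differed. It had 262, 284 and 283 CPM in 30-day males, against 473, 373 and 305 CPM in 30-day females. In 10-day males it had 243, 228 and 278 CPM, against 443, 467 and 407 CPM in 10-day females. The sexes did not overlap at either age. The fitted log2 difference was -0.90 with a standard error of 0.15 at 10 days (edgeR adjusted p = 0.00103). At 30 days it was -0.52 with a standard error of 0.19 (edgeR adjusted p = 0.0394), a call that was lost with the RLE and upper quartile factors and with DESeq2. It was also lost without any 1 of the 3 male libraries, where the adjusted p reached 0.115.

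Trxr1, the thioredoxin reductase on the X chromosome (8242528 to 8248033), had 290, 277 and 365 CPM in 30-day males, against 405, 411 and 437 CPM in 30-day females. It had 242, 239 and 262 CPM in 10-day males, against 502, 443 and 453 CPM in 10-day females. All male libraries lay below all female libraries of the same age. Males over females gave a log2 difference of -0.99 with a standard error of 0.11 at 10 days (edgeR adjusted p = 0.000166) and -0.47 with a standard error of 0.17 at 30 days (edgeR adjusted p = 0.0338). The 30-day call was lost with the RLE and upper quartile factors and with DESeq2 (adjusted p = 0.12). It was lost too without 30-day male 1 or 2 or 30-day female 2 or 3, where the adjusted p reached 0.118. Trxr1 shares 435 exonic bases with sni on the opposite strand. Whether the counting used strand is not given in the sources used here, so reads of the shared bases cannot be told apart. sni itself averaged 34.2 ± 2.14 CPM in 30-day males and 34.1 ± 4.31 CPM in 30-day females (SD, n = 3 each).

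The sexes overlapped in the ratio of reductase to general thioredoxin. Per length, Trxr1 amounted to 0.485 ± 0.0691 of Trx-2 in 30-day males and 0.488 ± 0.125 in 30-day females (SD, n = 3 each). At 10 days it was 0.430 ± 0.0225 in males and 0.459 ± 0.0440 in females (SD, n = 3 each), again with overlap. An exact permutation test of 3 against 3 libraries cannot give a two-sided p below 0.10, and it gave 0.90 at 30 days and 0.30 at 10 days.

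The makeup of the 3 thioredoxin transcripts differed almost wholly between the sexes. In CPM per kilobase, dhd made up 2.05% ± 2.37 of their sum in 30-day males and 94.9% ± 0.195 in 30-day females (SD, n = 3 each). TrxT made up 44.6% ± 3.35 in 30-day males and 0.0214% ± 0.00564 in 30-day females, and Trx-2 made up 53.3% ± 5.52 and 5.12% ± 0.194 (SD, n = 3 each). At 10 days TrxT was the largest share in males, with 60.4% ± 3.22, and Trx-2 had 37.8% ± 2.52 (SD, n = 3). In 10-day females dhd made up 94.2% ± 0.637 and Trx-2 made up 5.79% ± 0.634 (SD, n = 3). For each of the 3 genes the shares of males and females did not overlap at either age, and the exact permutation p was 0.10, the smallest that this design allows.

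**Figure D4:**
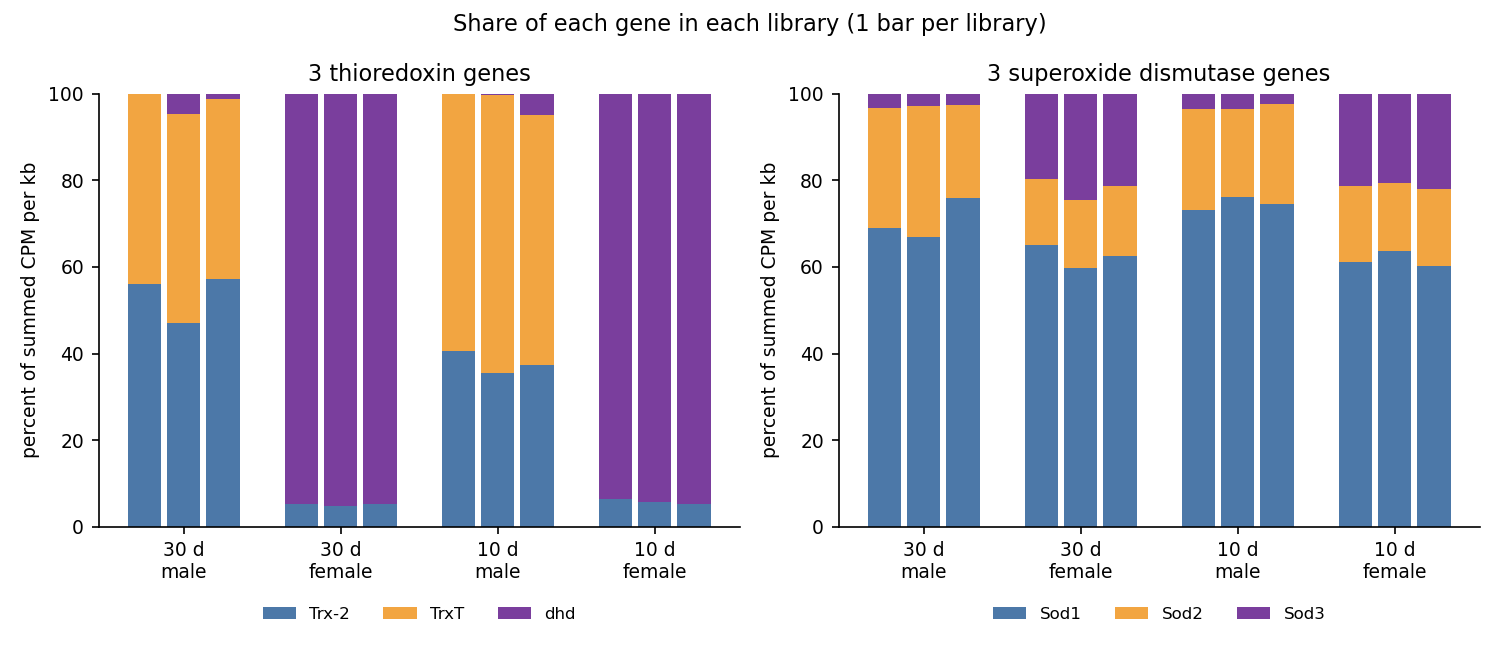
Share of each gene in the summed CPM per kilobase of the 3 thioredoxins (left) and of the 3 superoxide dismutases (right), with 1 bar per library. dhd fills most of every female bar, while male bars are divided between Trx-2 and TrxT, and Sod3 is a larger share in females than in males.

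Among the superoxide dismutases, Sod3 differed most between the sexes. Sod3 encodes the extracellular copper and zinc enzyme and lies on chromosome arm 2R (11380347 to 11384114). It had 37.9, 34.9 and 39.7 CPM in 30-day males, against 374, 332 and 272 CPM in 30-day females. It had 45.5, 45.6 and 34.1 CPM in 10-day males, against 328, 373 and 332 CPM in 10-day females. Male and female libraries were well apart. The log2 difference was -3.16 with a standard error of 0.19 at 30 days (edgeR adjusted p = 1.16e-05) and -3.13 with a standard error of 0.18 at 10 days (edgeR adjusted p = 1.14e-05). It kept its direction and its call under every scaling, filter, tool and left-out library that was run.

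Sod1, the cytosolic copper and zinc enzyme on chromosome arm 3L (11112281 to 11113740), was the most abundant superoxide dismutase per length in both sexes. It had 286, 291 and 400 CPM in 30-day males, against 448, 294 and 289 CPM in 30-day females. It had 338, 357 and 400 CPM in 10-day males, against 344, 418 and 332 CPM in 10-day females. The sexes overlapped at both ages. As a log2 difference this was -0.12 with a standard error of 0.23 at 30 days and -0.08 with a standard error of 0.17 at 10 days, and edgeR's adjusted p was 0.651 at each age. With body-tissue factors it was lower in males at both ages (-2.87 and -2.29), and relative to the median of all genes under TMM factors it was 1.44 and 1.14 log2 units lower.

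Sod2, the manganese enzyme of mitochondria on chromosome arm 2R (16772785 to 16773915), had 160, 182 and 156 CPM in 30-day males, against 144, 107 and 103 CPM in 30-day females. In 10-day males it had 150, 132 and 173 CPM, against 138, 141 and 136 CPM in 10-day females. The 30-day groups did not overlap and the 10-day groups did. edgeR gave a log2 difference of 0.45 with a standard error of 0.18 at 30 days (edgeR adjusted p = 0.0493) and 0.05 with a standard error of 0.14 at 10 days (edgeR adjusted p = 0.724). DESeq2 called it higher in 10-day males, with 0.26 (adjusted p = 0.0435). The 30-day call just passed the threshold and was lost with total counts, without the filter, with a filter on a mean of 10 counts, and without any 1 library other than 30-day female 1, where the adjusted p reached 0.174. It turned to a lower level in males, -2.31, with body-tissue factors.

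Sod3 made up 2.99% ± 0.297 of the superoxide dismutase transcripts per length in 30-day males and 21.9% ± 2.43 in 30-day females (SD, n = 3 each). At 10 days its share was 3.14% ± 0.717 in males and 21.3% ± 0.626 in females (SD, n = 3 each). Sod1 made up 70.5% ± 4.73 in 30-day males and 62.4% ± 2.67 in 30-day females, and Sod2 26.5% ± 4.57 and 15.7% ± 0.530 (SD, n = 3 each). These shares do not depend on the scaling of the libraries. None of the 3 overlapped between the sexes at either age, with an exact permutation p of 0.10 each.

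Cat encodes the main catalase of peroxisomes and lies on chromosome arm 3L (18822604 to 18828188). It had 268, 312 and 343 CPM in 30-day males, against 97.6, 60.6 and 172 CPM in 30-day females. It had 297, 335 and 333 CPM in 10-day males, against 83.0, 104 and 87.6 CPM in 10-day females. The sexes did not overlap, although the 30-day females spread widely. On the log2 scale males differed by 1.45 with a standard error of 0.35 at 30 days (edgeR adjusted p = 0.00534) and 1.72 with a standard error of 0.16 at 10 days (edgeR adjusted p = 6.78e-05). Under body-tissue factors it was lower in males, by -1.27 at 30 days and -0.49 at 10 days on the log2 scale. Of the summed CPM of the 6 muscle genes alone, Cat amounted to 13.2% ± 1.45 in 30-day males and 9.83% ± 5.05 in 30-day females, with overlap. At 10 days it was 15.4% ± 0.420 in males and 8.22% ± 0.915 in females, without overlap (SD, n = 3 each). Over the same muscle sum Sod1, Sod2, Sod3, Trx-2 and Trxr1 were lower in males at both ages, without overlap. Per length, Cat amounted to 0.352 ± 0.0397 of Sod1 in 30-day males and 0.125 ± 0.0812 in 30-day females, a ratio within each library that is free of the scaling (SD, n = 3 each). At 10 days this ratio was 0.325 ± 0.0197 in males and 0.0929 ± 0.00418 in females (SD, n = 3 each). The sexes did not overlap at either age (exact permutation p = 0.10 each).

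Irc, the immune-regulated catalase on chromosome arm 3R (17002875 to 17007208), encodes a secreted peroxidase that limits reactive oxygen in the gut. It had 107, 109 and 114 CPM in 30-day males, against 20.0, 5.29 and 19.6 CPM in 30-day females. It had 59.8, 71.7 and 65.7 CPM in 10-day males, against 14.0, 21.6 and 12.2 CPM in 10-day females. Males were higher throughout. The fitted log2 difference was 2.85 with a standard error of 0.46 at 30 days (edgeR adjusted p = 0.000789) and 1.94 with a standard error of 0.29 at 10 days (edgeR adjusted p = 0.000669). With body-tissue factors it was 0.21 at 30 days and -0.25 at 10 days, and neither passed the test. Over the summed CPM of the muscle genes alone, Irc was higher in males at both ages without overlap. Its share of that sum was 4.72% ± 0.0911 in 30-day males and 1.27% ± 0.612 in 30-day females. At 10 days it was 3.16% ± 0.205 in males and 1.43% ± 0.442 in females (SD, n = 3 each).

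The summed level of 6 gut genes, digestive enzymes such as trypsins, jonah proteases and an amylase, was higher in males than in females, as Irc was. It ranged over 2571 to 3294 CPM in 30-day males and 274 to 872 CPM in 30-day females, and over 1565 to 2572 CPM in 10-day males and 324 to 1011 CPM in 10-day females. All 6 gut genes passed the test as higher in males at each age, as did 48.4% of all tested genes at 30 days and 46.8% at 10 days. Across the ages, the sum and Irc were both higher on average in the 30-day males. The sum averaged 2970 CPM in 30-day males and 2200 CPM in 10-day males, and Irc 110 and 65.7 CPM. Within each age, the order of the male libraries by the sum was not their order by Irc. The sum was 3294, 3045 and 2571 CPM in 30-day males 1, 2 and 3, where Irc rose from 107 to 109 and 114 CPM. The lowest sum of the 10-day males, 1565 CPM in replicate 3, went with a middle Irc of 65.7 CPM. Among 10-day females, replicate 2 was the highest for both. The lowest female library for Irc, 30-day female 2, was the lowest of the 6 female libraries for the gut genes (274 CPM). It was also the lowest of them for the summed genes of photoreceptors (269 CPM), neurons (74.0 CPM), muscle (886 CPM) and fat body (414 CPM). The part of gut content in the level of Irc was not tested. The genes most like Irc over the 12 libraries were alpha-Est9 (r = 0.995), CG45076 (r = 0.994) and Spn43Ab (r = 0.994), an esterase, an unnamed gene and a serine protease inhibitor.

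The order of the 9 genes per length differed between the sexes. In 30-day males it ran from Sod1 (443 CPM per kilobase) to Trx-2 (204), TrxT (173), Sod2 (164), Cat (154), Trxr1 (98.7), Irc (45.9), Sod3 (18.6) and dhd (8.76). Trx-2, TrxT, Sod2 and Cat overlapped with their neighbours in this order, as did Sod3 and dhd. In 30-day females it ran from dhd (5229 CPM per kilobase) to Sod1 (468), Trx-2 (282), Sod3 (161), Trxr1 (133), Sod2 (116), Cat (55.2), Irc (6.26) and TrxT (1.22), and Sod3, Trxr1 and Sod2 overlapped with their neighbours. In 10-day males TrxT came second with 294 CPM per kilobase, apart from Sod1 above it and Trx-2 below it. In 10-day females the order was the same as at 30 days, and no neighbouring genes overlapped.

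Outside the germline thioredoxins, the sexes were without overlap in CPM for Sod3, Cat, Irc, Trx-2 and Trxr1 at both ages, and for Sod2 at 30 days. With TrxT and dhd this makes 8 of the 9 genes at 30 days and 7 at 10 days. Among all tested genes, 85.1% at 30 days and 84.8% at 10 days were without overlap.

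Age was compared in each sex with a fit of all 12 libraries. None of the 9 genes passed edgeR's test in males or in females. In males 0.184% of 14112 tested genes were higher and 0.262% lower at 30 days, and in females 0.0213% were higher and 0.305% lower. At an unadjusted p below 0.05 there was 1 of the 9 genes in males, Trxr1, and 0 in females. DESeq2 called 0 in either sex, and limma-voom called 1 in males, TrxT, and 0 in females. Over all 14112 genes, limma-voom called 335 higher and 910 lower in 30-day males, and DESeq2 218 and 354. In females limma-voom called 3 higher and 88 lower at 30 days, and DESeq2 147 and 468.

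TrxT averaged 192 ± 40.5 CPM in 30-day males and 325 ± 31.8 CPM in 10-day males (SD, n = 3 each), a log2 difference of -0.76 with a standard error of 0.35 (edgeR adjusted p = 0.422). No 30-day male library reached the lowest 10-day male library. limma-voom gave -0.81 (adjusted p = 0.00457), and an edgeR fit of the 6 male libraries alone gave -0.67 (adjusted p = 0.0437). The fit of the male libraries called 379 genes higher and 269 lower at 30 days, of 13724 tested. The summed level of 13 testis germline genes was 1730 to 2660 CPM in 30-day males and 2993 to 3297 CPM in 10-day males. TrxT amounted to 9.38% ± 0.393 of that sum in 30-day males and 10.4% ± 0.909 in 10-day males (SD, n = 3 each), and these shares overlapped (exact permutation p = 0.20). Of the 13 testis genes, 0 passed edgeR's test for age in males.

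Irc averaged 110 ± 3.49 CPM in 30-day males and 65.7 ± 5.94 CPM in 10-day males (SD, n = 3 each), without overlap, and the log2 difference was 0.74 with a standard error of 0.39 (edgeR adjusted p = 0.501). The edgeR fit of the male libraries alone called it higher, with 0.84 (adjusted p = 0.012). The gut genes of the 30-day males overlapped with those of the 10-day males at the edge of their ranges. In females Irc gave -0.09 with a standard error of 0.39. Per length, Irc amounted to 0.300 ± 0.0286 of Cat in 30-day males and 0.171 ± 0.00715 in 10-day males (SD, n = 3 each), again without overlap (exact permutation p = 0.10).

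The age difference of Trxr1 had opposite signs in the sexes and passed the test in neither. It was 0.33 log2 units in males with a standard error of 0.13 (edgeR adjusted p = 0.333), and -0.16 with a standard error of 0.13 in females (edgeR adjusted p = 0.718). Its libraries did not overlap between the ages in either sex, those of 30-day males being higher and those of 30-day females lower. In males 25.3% of tested genes, and in females 13.7%, were without overlap between the ages. Of the 9 genes this held for TrxT, Irc and Trxr1 in males and for Trxr1 in females.

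**Figure D5:**
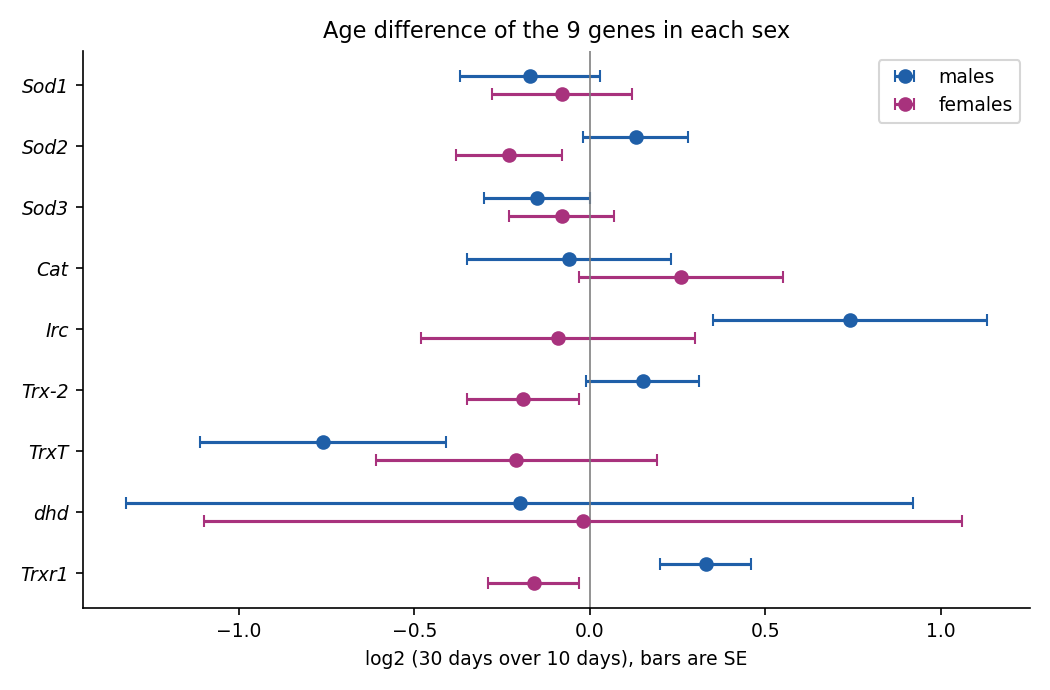
Log2 difference of 30-day over 10-day flies for each of the 9 genes in males and females, with standard errors as bars, from the fit of all 12 libraries. The values lie between -0.76 for TrxT and 0.74 for Irc in males and between -0.23 for Sod2 and 0.26 for Cat in females, and none passed the test.

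For the other 6 genes the groups of both ages overlapped in each sex. In males the log2 differences were -0.17 for Sod1, 0.13 for Sod2, -0.15 for Sod3, -0.06 for Cat, 0.15 for Trx-2 and -0.20 for dhd. In females they were -0.08 for Sod1, -0.23 for Sod2, -0.08 for Sod3, 0.26 for Cat, -0.19 for Trx-2 and -0.02 for dhd. The standard error of dhd was 1.12 in males and 1.08 in females. Without 10-day male 3 its difference in males was 2.61 and without 30-day male 2 it was -1.93, while without both it was 0.89, and none of these passed the test.

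A sex difference that changes with age was tested as an interaction. None of the 9 genes passed edgeR's test, where 0.00709% of 14112 tested genes were more male-biased and 0.00709% less male-biased at 30 days. At an unadjusted p below 0.05 there was 1 gene, Trxr1, and DESeq2 and limma-voom called 0. Over all genes DESeq2 called 282 more and 259 less male-biased at 30 days, and limma-voom 55 and 28. For Trxr1 the male-over-female difference was 0.49 log2 units larger at 30 than at 10 days, with a standard error of 0.18 (edgeR adjusted p = 0.288). For Irc the difference of differences was 0.83 with a standard error of 0.56, and for TrxT it was -0.56 with a standard error of 0.53.

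Peroxidases, which take over hydrogen peroxide alongside catalase, were compared as a list of 10 genes, of which 9 were tested. In 30-day males 4 were higher and 2 lower than in females, and 5 were higher and 3 lower in 10-day males. With body-tissue factors this became 1 higher and 6 lower at 30 days and 2 higher and 6 lower at 10 days. With TMM factors, 48.4% of all tested genes were higher and 30.4% lower in males at 30 days, and 46.8% and 31.6% at 10 days. The median log2 difference of the list was then 0.33 at 30 days and 0.61 at 10 days, against 1.32 and 1.06 for all tested genes. The cytosolic peroxiredoxin Jafrac1 (Prx2) averaged 192 ± 21.9 CPM in 30-day males and 1119 ± 98.2 CPM in 30-day females, and 147 ± 2.18 CPM in 10-day males and 1059 ± 60.3 CPM in 10-day females (SD, n = 3 each). Its log2 difference was -2.59 at 30 days and -2.93 at 10 days. The mitochondrial peroxiredoxin Prx3 was lower in males as well, by -1.49 at 30 days and -1.34 at 10 days on the log2 scale. The glutathione peroxidase-like gene CG15116 had 1868, 1152 and 1263 counts in 30-day males and 0 in the females of that age. Its mean CPM in these males was at least 699-fold that of a floor of 3 counts per female library. Prx2540-2 was higher in males, by 2.83 log2 units at 30 days and 3.57 at 10 days, and gave 0.03 and 1.37 with body-tissue factors. It has near-identical copies, Prx2540-1 and CG12896, so that the counts of these genes are uncertain.

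Of 9 further thioredoxin and glutaredoxin relatives, 4 were higher and 1 lower in males at each age. Of all tested genes, 48.4% were higher and 30.4% lower in males at 30 days, and 46.8% and 31.6% at 10 days. The median of the list was 0.35 log2 units at 30 days and 0.22 at 10 days, against 1.32 and 1.06 for all tested genes. With body-tissue factors 4 of the list were still higher, and 5 were lower, at each age. The 4 were the thioredoxin-like genes CG8517 and CG13473, the glutaredoxin Grx1t and the second thioredoxin reductase, Trxr2. Trxr2 had 944, 623 and 898 counts in 30-day males and 1516, 2172 and 1969 in 10-day males, and 0 in all 6 female libraries. Its mean CPM in males was thus at least 398-fold that of the floor of 3 counts per female library at 30 days, and at least 874-fold at 10 days. CG8517 averaged 174 ± 95.2 CPM in 30-day males and 0.209 ± 0.362 CPM in 30-day females (SD, n = 3 each). The gene that was lower in males was Txl, with log2 differences of -0.93 at 30 days and -0.89 at 10 days.

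Of 4 relatives of superoxide dismutase and catalase, the second catalase gene CG9314 (CatB) averaged 152 ± 42.7 CPM in 30-day males and 0.125 ± 0.131 CPM in 30-day females, and 233 ± 33.7 CPM in 10-day males and 0.208 ± 0.360 CPM in 10-day females (SD, n = 3 each). Ccs, the chaperone that loads copper into Sod1, was 0.75 log2 units lower in 10-day males (difference -0.75, edgeR adjusted p = 0.0272) and gave -0.59 at 30 days (edgeR adjusted p = 0.0909), and its 10-day call was lost with RLE factors (adjusted p = 0.0592). The superoxide dismutase relative Sodq was higher in 30-day males, with a log2 difference of 4.68 (edgeR adjusted p = 0.0315), but not with body-tissue factors (2.01, adjusted p = 0.236). Its level was low, with 2.02 ± 0.274 CPM in 30-day males and 0.0759 ± 0.131 CPM in 30-day females (SD, n = 3 each). Of this list, 2 of 4 passed as higher and 0 as lower in 30-day males, and 1 of 3 as higher and 1 as lower in 10-day males. Among all tested genes 48.4% were higher and 30.4% lower in males at 30 days, and 46.8% and 31.6% at 10 days.

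Of 13 genes of glutathione synthesis, redox regulation and repair, 12 were tested at 30 days, with 2 higher and 1 lower in males, and 13 at 10 days, with 4 higher and 2 lower. With body-tissue factors 0 were higher and 10 lower at 30 days, and 1 was higher and 10 lower at 10 days. With TMM factors, 48.4% of all tested genes were higher and 30.4% lower in males at 30 days, and 46.8% and 31.6% at 10 days. The list's median log2 difference was then 0.09 at 30 days and -0.08 at 10 days, against 1.32 and 1.06 for all tested genes. Gclm, a subunit of the enzyme that starts glutathione synthesis, averaged 97.7 ± 8.69 CPM in 30-day males and 204 ± 26.3 CPM in 30-day females (SD, n = 3 each), with a log2 difference of -1.11. DJ-1alpha, a redox sensor, averaged 12.7 ± 6.12 CPM in 30-day males and 0.200 ± 0.271 CPM in 30-day females (SD, n = 3 each). The methionine sulfoxide reductase MsrA was higher in males at 10 days by 0.97 log2 units and gave -0.12 at 30 days, while with body-tissue factors it was lower at both ages, by -2.86 at 30 days and -1.25 at 10 days. Gss2, a glutathione synthetase, was higher in 10-day males by 2.17 log2 units and gave 1.24 at 30 days without passing the test, and with body-tissue factors it gave -1.38 and -0.06. None of the genes of these lists passed edgeR's test for age in either sex or for the interaction.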

How the data were processed

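Poly(A) RNA of 12 pools of 10 flies was sequenced as 150 bp paired-end reads. The authors deposited raw gene counts per library, by NCBI gene, in tables for 10 days (15130 genes) and 30 days (15261 genes). The aligner, counter and annotation are not given in the sources used here. Deposited columns of normalized counts, for the 12 libraries and 4 group means, lack a readable decimal point and were not used. Deposited FPKM, fold change and p-value columns, which hold the authors' comparisons or none of the 9 genes, were not used either.

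Counts were tested with edgeR 4.0.16 in R 4.3.3 (quasi-likelihood test, TMM, filterByExpr with 10 counts, Benjamini-Hochberg, adjusted p below 0.05). The sexes were compared at each age on 6 libraries. Age and the interaction came from a fit of 12 libraries on genes of both tables. The procedure was run on simulated counts with the same mean per gene in all groups, apart from a set of changed genes. The wide sex differences of these data were thus not simulated. Standard errors were derived from the F statistic. Alternatives were DESeq2 1.42.0, limma-voom (limma 3.58.1), other factors and filters, a replicate block and left-out libraries. Tables were made with Python 3.11.15, pandas 2.3.3, scipy 1.17.1, numpy 2.4.6 and matplotlib 3.10.9. Lengths are exon unions of BDGP6.54. Intervals between libraries cover the spread of these samples only.

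The genes given by name are the 9 members, up to 4 genes of each list with the smallest adjusted p at 10 days, the 3 genes most like TrxT, dhd and Irc, and the nearest neighbours of TrxT and dhd. The ovary genes, kl-3 and kl-5 belong to marker lists. CG12896, Prx2540-1, Txl and sni were named, and osk, Pxt, swa and vas singled out, after their values were seen. The members and lists were chosen with earlier results of these data known. A planned motif search was not run, and Prx5 was not analysed here.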

Additional observations from a re-analysis of the deposited data

How the results depend on the processing

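Leaving out 1 library at a time kept the calls of Sod3, Cat, Irc, TrxT and dhd between the sexes at both ages, and those of Trx-2 and Trxr1 at 10 days. The number of the 9 genes lower in males at 30 days was 2 to 4 over the left-out libraries, and 2 with RLE factors, with upper quartile factors and with DESeq2. With body-tissue factors 1 was higher and 7 lower in males at each age. For dhd at 10 days DESeq2 gave no adjusted p. Counting error weighs most on the libraries with the fewest counts, 26 and 28 of dhd in a 30-day and a 10-day male and 35 of TrxT in a female, but not on the male libraries high in dhd, with 402 counts in 30-day male 2 and 1067 in 10-day male 3. The cause of these changes was not tested.

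Whether a replicate number marks a shared experiment is not stated in the sources used here. Libraries of the same number deviated from their group means with r of -0.09 to 0.05, which does not show a pairing but cannot exclude it. With the replicate number as a block, 2 of the 9 genes were lower in males at 30 days in place of 4. At that age the calls of Sod2 (0.46, adjusted p = 0.0882), Trx-2 (-0.49, adjusted p = 0.097) and Trxr1 (-0.48, adjusted p = 0.0744) were lost with the block, and the age difference of dhd in females was 0.14.

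With body-tissue factors Sod2 and Cat gave -2.31 and -1.27 at 30 days, and Sod2, Cat and Irc -2.16, -0.49 and -0.25 at 10 days. The sex difference of Sod1 was 0.06 at 30 days with RLE factors and DESeq2 and 0.21 with upper quartile factors. At 10 days it was 0.13 with each of these and 0.00 in the fit of all libraries. Sod2 gave -0.11 at 10 days with total counts. With upper quartile factors the interaction was 0.06 for Sod1 and 0.07 for Sod3, and the age difference of Cat in males 0.04. Fits of 1 sex alone gave 0.03 for Cat in males and 0.00 for dhd in females, and called 1 gene higher (Irc) and 1 lower (TrxT) in 30-day males, while limma-voom called 1 lower. In females, age differences with total counts were 0.00 for Sod1, 0.01 for Sod3 and 0.07 for dhd, and with body-tissue factors 0.02 for Sod1 and Trxr1, 0.09 for Sod3 and 0.15 for dhd.

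Over the left-out libraries, signs also changed for values that passed no edgeR test. DESeq2 called Sod2 at 10 days (0.26). The sex difference at 30 days ranged over -0.30 to 0.06 for Sod1. The sex difference at 10 days ranged over -0.20 to 0.09 for Sod1 and -0.01 to 0.22 for Sod2. The interaction ranged over -1.91 to 2.63 for dhd, -0.25 to 0.25 for Sod1, -0.20 to 0.13 for Sod3 and -0.51 to 0.31 for Cat. The age difference in males ranged over -1.93 to 2.61 for dhd and -0.15 to 0.03 for Cat. The age difference in females ranged over -0.34 to 0.03 for Sod1, -0.45 to 0.24 for Irc, -0.65 to 0.33 for TrxT, -0.19 to 0.06 for dhd and -0.30 to 0.52 for Cat. Without both 10-day male 3 and 30-day male 2, a choice made after seeing the data, the interaction was 0.06 for Sod1 and 0.91 for dhd and the age difference of dhd in males was 0.89.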
